A study of Mus musculus with 5 samples.

Results

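The genes described here are the SMAD transducers of TGF-beta and BMP signalling and their inhibitors: Smad1, Smad2, Smad3, Smad4, Smad5, Smad6, Smad7, Smurf1 and Smurf2. These 9 genes were chosen by name from the pathway, with earlier results of these data known, and they are 9 of the 13489 genes with a tag in any of the 5 libraries. All 9 had tags.

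In textbook accounts, TGF-beta and BMP ligands bring together pairs of receptor kinases, which phosphorylate receptor-regulated SMADs. SMAD1 and SMAD5 act mainly behind BMP receptors and SMAD2 and SMAD3 mainly behind TGF-beta and activin receptors. Each binds the common partner SMAD4 and enters the nucleus to regulate genes. SMAD6 and SMAD7 are inhibitory SMADs that block the receptors and are themselves induced by the pathway, and SMURF1 and SMURF2 are ubiquitin ligases that mark SMADs and receptors for degradation. In the embryonic heart, BMP and TGF-beta signals from the myocardium and endocardium drive the epithelial to mesenchymal transition (EMT) by which endocardial cells fill the cushions, the forerunners of the valves.

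Tag-seq counts a 17-base tag next to NlaIII sites of polyadenylated transcripts. It was done on mouse hearts at E10.5 (Theiler stage 17), with pooled tissue of at least 3 litters per library. The atrioventricular canal (AVC, 25 embryos), outflow tract (OFT, 25 embryos), atria (20 embryos) and ventricles (20 embryos) came from wild type embryos labelled C57BL/6. The methods name C57BL/6J females for the matings. The AVC of Twist1 knockout embryos (the Twist1 null AVC, 8 embryos) was on the ICR strain, so genotype and strain cannot be told apart in that comparison. Each group is 1 library of whole dissected tissue with no replicate, and every difference below is between libraries. In such bulk tissue, fewer cells of a type and less RNA per cell cannot be told apart.

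The files listed 6075421 tags for the AVC, 5267618 for the OFT, 4666514 for the atria, 4223810 for the ventricles and 12977237 for the null. Levels are tags per 1000000 listed tags (TPM). Tag types with fewer than 6 tags are not listed, so the lowest level a tag type could have was 0.988 TPM in AVC, 1.14 in OFT, 1.29 in atria, 1.42 in ventricles and 0.462 in the null. A gene given as 0 had no tag type over that limit and was not shown to be absent, and unlisted tags of several types could sum to more. With 5 tags for each of its tag types that any library lists, Smad5 could reach 7.10 TPM unlisted in the ventricles, and Smad6 4.29 in the atria and 4.74 in the ventricles. Intervals are 95% and cover counting error only.

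Twist1, the check on the null label, was at 918 TPM in AVC, 299 in OFT, 63.4 in atria, 55.9 in ventricles and 4.55 in the null. Cell type markers differed widely between the libraries. The 7 cushion mesenchyme markers summed to 3795 TPM in AVC, 4704 in OFT, 744 in atria, 960 in ventricles and 1147 in the null. Vim was the most abundant of them in all libraries but the OFT, where Col3a1 led, and Prrx1 was at 0 in atria and ventricles. Haemoglobin tags were 0.242% of the AVC library, 0.307% of the OFT, 21.5% of the atria, 4.67% of the ventricles and 2.73% of the null. The 7 erythroid markers, led by Hba-x in the AVC and OFT and by Hbb-y in the other libraries, summed to 2426 TPM in AVC, 3083 in OFT, 215379 in atria, 46723 in ventricles and 27354 in the null. The 8 cardiomyocyte markers, led by Actc1 in each library, summed to 23491 TPM in AVC, 25552 in OFT, 8153 in atria, 22673 in ventricles and 19108 in the null. Of the 7 endothelial and endocardial markers, which summed to 424 TPM in AVC, 477 in OFT, 180 in atria, 243 in ventricles and 492 in the null, Emcn was at 0 in AVC. The 5 epicardial markers, led by Tbx18 in AVC and by Tcf21 in atria, summed to 242 TPM in AVC, 78.8 in OFT, 280 in atria, 241 in ventricles and 158 in the null, and Wt1 was at 0 in atria. The part of these cells in the results below was not tested.

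**Figure D1:**
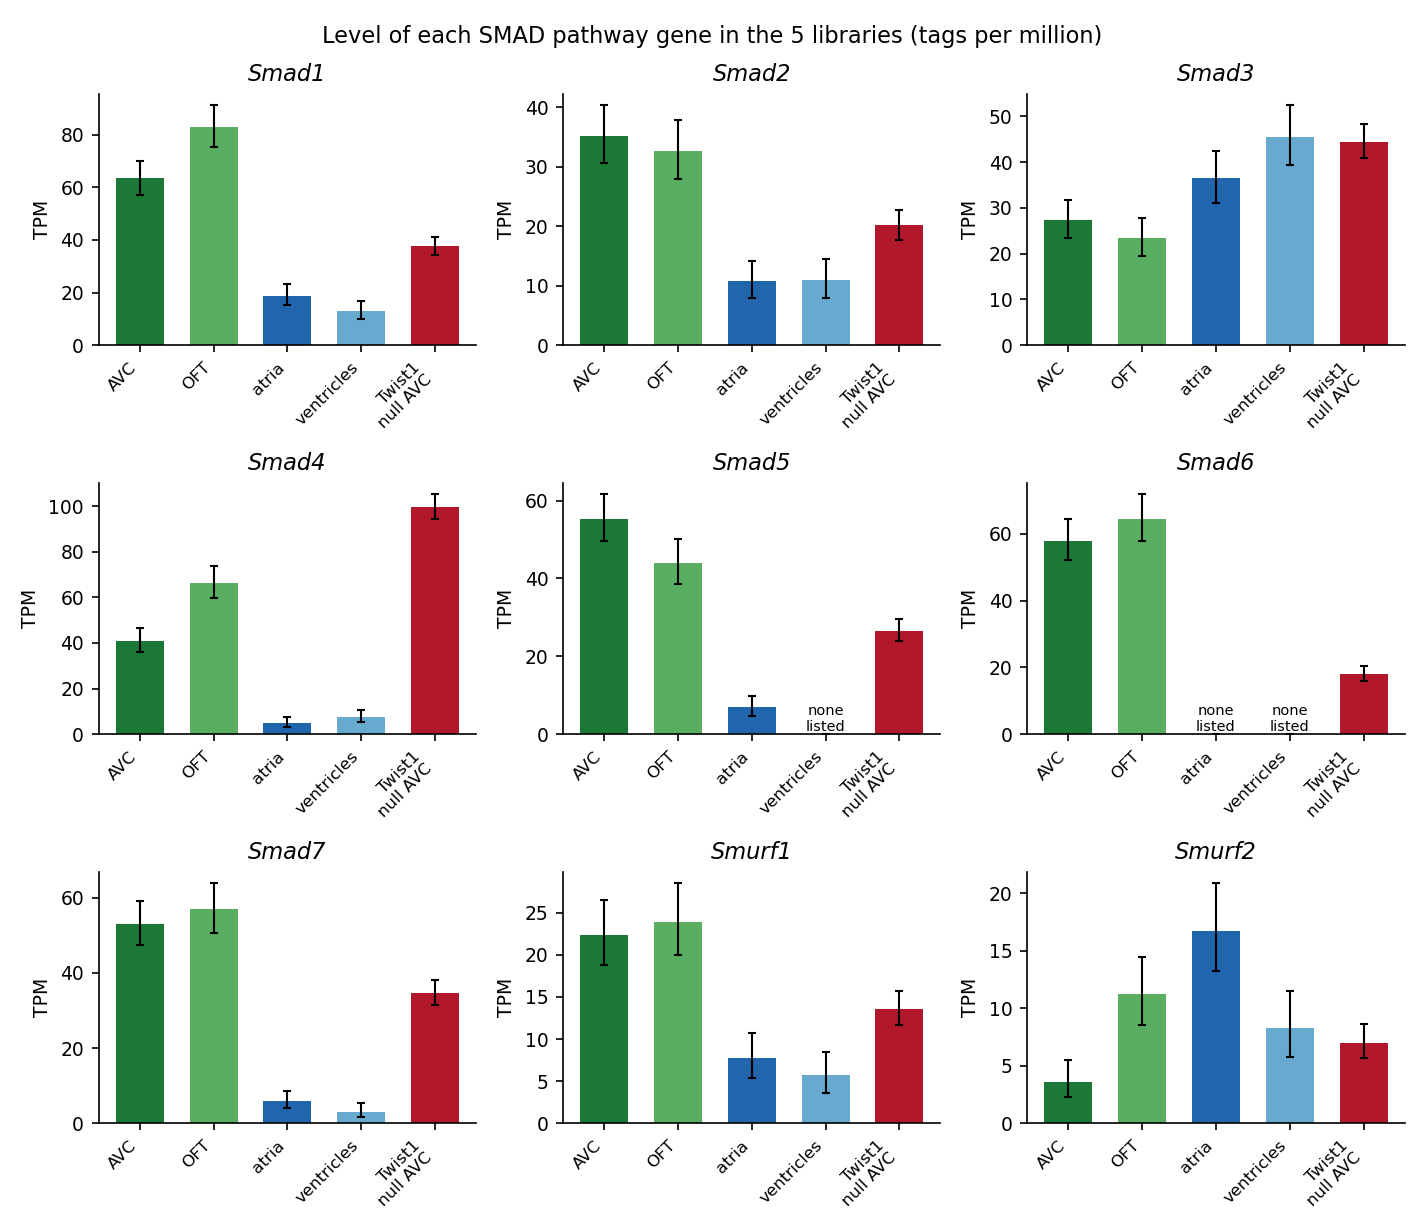
Level of the 9 genes in each library, in TPM. Bars are single libraries and error bars are 95% exact binomial intervals (counting error only). Smad1, Smad2, Smad4, Smad5, Smad6, Smad7 and Smurf1 stood higher in the AVC and OFT than in the atria and ventricles, Smad3 was lowest in the OFT and AVC, and Smad6 was not listed in either chamber.

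Smad1 and Smad5, the BMP-responsive transducers, were both highest in the cushion-forming tissues. Some of their tag types, with the NlaIII site in capitals, were as follows.
Smad1 site 1: CATGcatagtaatctttctga
Smad1 site 2: CATGggttttcttaatatttt
Smad1 site 3: CATGtacttgaaggatggaca
Smad5 site 1: CATGgggagccttaggacggt
Smad5 site 13: CATGgcctgagaatgaagaca
Sites are counted from the 3′ end of the transcript. The site 1 tags are the most abundant of these genes. Smad1 site 2 and Smad5 site 13 are shown because their direction differed from that of the gene in a comparison, and Smad1 site 3, chosen after its values were seen, because it differed most of the Smad1 tags between the null and the AVC. In GRCm38, Smad1 site 1 lies at chr8:79339130-79339150, site 2 at chr8:79339217-79339237 and site 3 at chr8:79339587-79339607, all on the minus strand in the 3′ UTR in exon 7 of 7. Smad5 site 1 lies at chr13:56741976-56741996 and site 13 at chr13:56738868-56738888, on the plus strand in the 3′ UTR in exon 7 of 7.

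Smad1 (chr8:79338395-79399518) was at 63.4 TPM in AVC, 83.0 in OFT, 18.9 in atria, 13.0 in ventricles and 37.6 in the null. Each step in that order was beyond counting error, from the OFT down to the ventricles. Site 1 alone gave 48.2, 66.8, 15.9, 13.0 and 34.1 TPM in AVC, OFT, atria, ventricles and null. Smad1 site 3 behaved differently in the null: it was at 13.2 TPM in AVC and 15.0 in OFT, 3.00 in atria, 0 in ventricles and 0.848 in the null. The log2 ratio of the null to the AVC was −3.96 for site 3 and −0.50 for site 1, in the same exon. Site 2, at 1.98 TPM in AVC and 2.70 in the null, had a log2 ratio of 0.45.

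Smad5 (chr13:56703010-56742377) was at 55.3 TPM in AVC, 44.0 in OFT, 6.86 in atria, 0 in ventricles and 26.6 in the null. No tag type of Smad5 reached the listing limit in the ventricles. Site 1 gave 39.8 TPM in AVC, 35.3 in OFT, 1.71 in atria and 15.8 in the null. Site 13 was listed at 2.36 TPM in atria and 1.77 in the null and in no other library. A tag of a noncoding Smad5 transcript without a RefSeq link, not in these sums, was at 8.23 TPM in AVC, 9.49 in OFT, 4.71 in atria, 4.50 in ventricles and 2.93 in the null, so tags of the Smad5 locus were listed in the ventricles too.

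Smad3, a TGF-beta and activin transducer, was counted almost wholly from 1 tag type at its last NlaIII site.
Smad3 site 1: CATGtatttatagtgttttag
Smad3 site 2: CATGgctatcgccctgaacag
Site 1 lies at chr9:63646892-63646912 and site 2, shown because its direction in the null differed from that of the gene, at chr9:63647408-63647428, on the minus strand in the 3′ UTR in exon 9 of 9. Smad3 (chr9:63646767-63757994) was at 27.3 TPM in AVC, 23.4 in OFT, 36.4 in atria, 45.5 in ventricles and 44.5 in the null. It ran the other way from Smad1 and Smad5, with its lowest values in the AVC and OFT. The ventricles and the null did not differ beyond counting error, nor did the AVC and the OFT. Site 1 carried between 94.5% and 100% of the gene in a library, at 26.3 TPM in AVC and 42.0 in the null, and site 2 was at 0.988 TPM in AVC and 0.616 in the null.

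Smad6, the BMP-induced inhibitory SMAD, was counted mainly from a tag inside its coding sequence.
Smad6 site 1: CATGtctccggatgccaccaa
Smad6 site 7: CATGtgttgacacccgcgttc
Site 1 lies at chr9:63954029-63954049 on the minus strand, in the coding sequence in exon 4 of 4. Site 7, whose direction in the null differed from that of the gene, lies at chr9:64021690-64021710 in the 5′ UTR in exon 1 of 4. Smad6 (chr9:63953076-64022059) was at 57.9 TPM in AVC, 64.5 in OFT, 0 in atria, 0 in ventricles and 18.03 in the null. Its counts were 352 tags in the AVC and 340 in OFT, with no tag type listed in either chamber library. Site 1 gave 53.5 TPM in AVC, 59.4 in OFT and 13.1 in the null. Site 7 gave 3.13 TPM in AVC, 3.04 in OFT and 4.93 in the null, where it made up 27.4% of the gene.

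Smurf1 and Smurf2, the ubiquitin ligases, had different patterns from each other.
Smurf1 site 1: CATGgcagccttctgacggtg
Smurf1 site 7: CATGcctccgtttgtggtttt
Smurf2 site 1: CATGtttagttgtgtttttct
Smurf2 site 2: CATGatttttgaacaactcct
Smurf2 site 6: CATGaactcaaaccaaatggc
Smurf2, transcript without a RefSeq link, site 1: CATGccgaagctgagcaataa
Smurf1 site 1 and Smurf2 site 2 are the most abundant RefSeq-linked tags of these genes, the last tag was chosen after its values were seen, and the others differed in direction from their gene in a comparison. Smurf1 site 1 lies at chr5:144876790-144876810 and site 7 at chr5:144878167-144878187, both in the 3′ UTR in exon 18 of 18 on the minus strand. Smurf2 site 1 lies at chr11:106822109-106822129 and site 2 at chr11:106822236-106822256, in the 3′ UTR in exon 19 of 19 on the minus strand, and site 6 at chr11:106830964-106830984 in the coding sequence in exon 15 of 19. The tag of the other Smurf2 transcript lies at chr11:106820105-106820125, in a 3′ UTR that extends past the end of the RefSeq-linked one.

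Smurf1 (chr5:144876495-144965847) was at 22.4 TPM in AVC, 23.9 in OFT, 7.71 in atria, 5.68 in ventricles and 13.6 in the null. The AVC and OFT did not differ beyond counting error, nor did the atria and ventricles. Site 7 was listed in the null alone, at 1.85 TPM.

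Smurf2 (chr11:106820066-106920715) was at 3.62 TPM in AVC, 11.2 in OFT, 16.7 in atria, 8.29 in ventricles and 7.01 in the null, from 22, 59, 78, 35 and 91 tags. It was lowest in the AVC, and the ventricles were within counting error of both the OFT and the null. Most of its tags in each library were of site 2, which gave 1.98 TPM in AVC, 7.40 in OFT, 15.4 in atria, 8.29 in ventricles and 4.85 in the null. Site 1 gave 1.65 TPM in AVC, 2.28 in OFT and 1.62 in the null, and was not listed in the chambers. Site 6 was at 1.52 TPM in OFT, 1.29 in atria and 0.539 in the null.

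The longer Smurf2 3′ UTR stood higher in the AVC and OFT than in the chambers. Its tag was at 25.02 TPM in AVC, 17.1 in OFT, 0 in atria, 4.02 in ventricles and 29.4 in the null. It was higher in the AVC, the OFT and the null than all RefSeq-linked Smurf2 tags together. With all transcripts of the annotation counted, Smurf2 came to 28.6 TPM in AVC, 29.8 in OFT, 16.7 in atria, 12.3 in ventricles and 37.5 in the null.

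Smad2, Smad4 and Smad7 are given by value only, with no tag sequence. Smad2, the other TGF-beta and activin transducer, was at 35.2 TPM in AVC, 32.7 in OFT, 10.7 in atria, 10.9 in ventricles and 20.1 in the null. The AVC and OFT did not differ beyond counting error, nor did the atria and ventricles, and the null lay between the pairs. Its most abundant tag, at site 28 in the 3′ UTR, gave 21.6 TPM in AVC, 16.3 in OFT, 3.43 in atria, 5.45 in ventricles and 10.2 in the null.

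Smad4, the common partner, was at 41.0 TPM in AVC, 66.4 in OFT, 4.93 in atria, 7.58 in ventricles and 99.5 in the null. By RefSeq-linked tags it was the only one of the 9 genes with its highest level in the null, and only the ventricles and atria were within counting error of each other. Its site 1 tag, in the 3′ UTR, gave 27.8 TPM in AVC, 51.4 in OFT and 90.8 in the null. Its site 3 tag, also in the 3′ UTR, gave 8.56 TPM in AVC, 13.7 in OFT and 5.09 in the null.

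Smad7, the inhibitory SMAD of both pathway branches, was at 53.0 TPM in AVC, 57.0 in OFT, 6.00 in atria, 3.08 in ventricles and 34.7 in the null. The OFT and AVC were within counting error of each other, as were the atria and ventricles. Its site 1 tag gave 42.1 TPM in AVC, 47.1 in OFT, 4.71 in atria, 3.08 in ventricles and 12.0 in the null. Its site 4 tag was listed in the null alone, at 18.6 TPM, where it made up 53.6% of the gene. The null was of another strain, and whether strain sequence differs at this site, or at Smad1 site 3, was not tested.

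**Figure D2:**
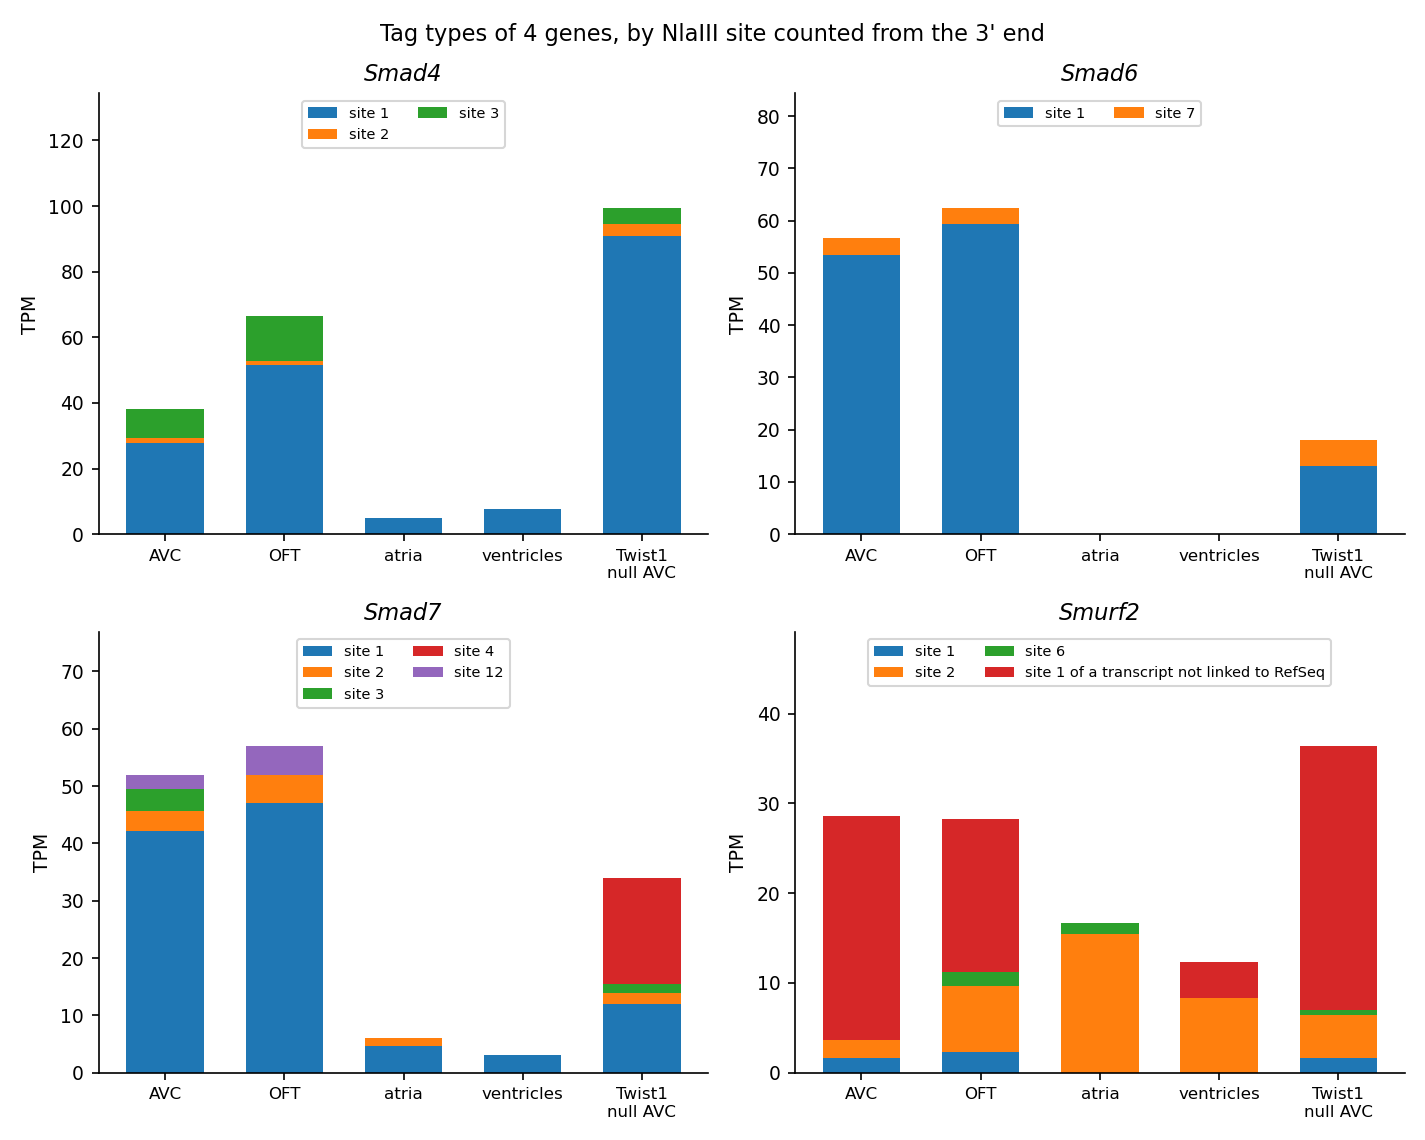
Tag types of Smad4, Smad6, Smad7 and Smurf2 in each library, stacked in TPM and named by NlaIII site from the 3′ end; tag types with fewer than 20 tags over the 5 libraries are left out. Site 4 of Smad7 appears in the null alone at 18.6 TPM, and the Smurf2 tag without a RefSeq link makes up most of the AVC, OFT and null bars.

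The first comparison asked which genes were more abundant in the AVC than in the chambers, taking the atria and ventricles summed as 1 library. Smad4, Smad5, Smad6 and Smad7 were past 4-fold higher in the AVC, 4 of 9 genes, where 23.8% of the 12506 genes tested were past 4-fold higher. None of the 9 was past 4-fold lower, where 3.01% of all genes were. The exact test of edgeR with the dispersion fixed at 0.12, Benjamini-Hochberg adjusted over all genes tested, stands beside each ratio. It compares the libraries, not the conditions, and its spread is assumed, not measured.

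Among the BMP-responsive transducers, Smad5 was 15.4-fold higher in the AVC than in the chambers (10.7 to 22.8, adjusted exact p = 4.26e-05). On the log2 scale this ratio of 3.94 became 3.01 against the atria alone, a bound of 2.96 against the ventricles alone, 2.95 with all transcripts counted, 2.27 with a GC correction and 5.66 with the 3′-most site only. Smad1 was 3.94-fold higher (3.24 to 4.81, adjusted exact p = 0.0267), just under the limit of 4-fold. Of the TGF-beta and activin transducers, Smad2 was 3.26-fold higher (2.55 to 4.19, adjusted exact p = 0.0573) and Smad3 was 1.49-fold lower (1.24 to 1.802, adjusted exact p = 0.551). With the GC correction the log2 ratio went from 1.98 to 0.98 for Smad1 and from 1.71 to 0.18 for Smad2. Smad4 was 6.62-fold higher (4.93 to 9.04, adjusted exact p = 0.00299). Its log2 ratio of 2.73 fell to 1.46 with the GC correction and 1.78 with the TMM normalization described below, both under 4-fold.

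The inhibitory SMADs had large ratios. Smad6 was at least 12.9-fold higher, a bound that sets 5 tags for each tag type missing from each chamber library (adjusted exact p = 2.27e-04 with those 40 tags in the chambers, as for every gene with no tag listed on a side, and 9.23e-11 with 0). On the log2 scale this bound of 3.69 fell to 1.84 with the GC correction and 0.23 without tags starting with thymine, both under 4-fold. Smad7 was 11.5-fold higher (8.29 to 16.3, adjusted exact p = 1.75e-04). Its unlisted tag types could add more in the ventricles than the 3.08 TPM listed there, which this interval leaves out. Smurf1 was 3.32-fold higher (2.43 to 4.57, adjusted exact p = 0.0573), but its log2 ratio went from 1.73 to −0.31 with the GC correction. Smurf2 was 3.51-fold lower (2.21 to 5.82, adjusted exact p = 0.0598), a direction that turned with all transcripts counted, when its log2 ratio was 0.97, and with the 3′-most site only (0.55). It was past 4-fold lower against the atria alone (−2.21), without haemoglobin tags in the totals (−2.02) and with the GC correction (−2.71).

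The comparison of the OFT with the same atria and ventricles shares those control libraries, so its ratios are not independent of those above. Smad1, Smad4, Smad5, Smad6 and Smad7 were past 4-fold higher, 5 of 9 genes, against 22.2% of the 12453 genes tested, and none was past 4-fold lower, against 3.34%. Smad1 was 5.16-fold higher (4.26 to 6.27, adjusted exact p = 0.00836). Its log2 ratio of 2.37 fell to 1.48 with the GC correction and 1.51 with TMM normalization, both under 4-fold. Smad4 was 10.7-fold higher (8.06 to 14.5, adjusted exact p = 2.48e-04) and Smad5 12.2-fold higher (8.43 to 18.3, adjusted exact p = 1.55e-04). The log2 ratio of Smad5 went from 3.61 to 2.68 against the atria alone, a bound of 2.63 against the ventricles alone, 2.70 with all transcripts, 2.07 with the GC correction and 5.43 with the 3′-most site only. Smad6 was at least 14.3-fold higher (adjusted exact p = 1.14e-04 with 40 tags in the chambers and 7.73e-11 with 0), though no bound could be had without tags starting with thymine. Smad7 was 12.3-fold higher (8.89 to 17.6, adjusted exact p = 1.28e-04), a ratio that leaves out its unlisted chamber tags.

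The other 4 genes were within 4-fold in the OFT. Smurf1 was 3.54-fold higher (2.59 to 4.90, adjusted exact p = 0.0484) and Smad2 3.02-fold higher (2.34 to 3.92, adjusted exact p = 0.0781). With the GC correction the log2 ratio went from 1.83 to 0.06 for Smurf1 and from 1.60 to 0.37 for Smad2. Smad3 was 1.74-fold lower (adjusted exact p = 0.396). Smurf2 was 1.13-fold lower (adjusted exact p = 0.892), and 1.03 higher on the log2 scale with all transcripts counted.

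Most genes had higher TPM in the AVC and OFT than in the chambers. The median log2 ratio of all genes to the chambers was 0.96 in AVC and 0.85 in OFT. TMM normalization, which centres the bulk of genes, lowered each log2 ratio by 0.95 and 0.86, and totals without haemoglobin tags lowered it by 0.21 and 0.20. Relative to this shift, Smad5 stayed 2.99 and 2.76 higher on the log2 scale in the AVC and OFT, Smad7 2.57 and 2.77, and the bound for Smad6 was 2.73 and 2.99. Smad4 was at 1.78 and 2.57 and Smad1 at 1.03 and 1.51. Smad2 was at 0.75 and 0.74 and Smurf1 at 0.78 and 0.97. Smad3 was at −1.53 and −1.66, with adjusted exact p = 0.0987 and 0.0742. With TMM, Smad1 no longer passed the adjusted exact test of edgeR in the AVC (adjusted exact p = 0.289) or OFT (0.102). Neither did Smad4 in the AVC (0.0645) or Smurf1 in the OFT (0.334). Smurf2 in the AVC then passed it (0.00574), by its RefSeq-linked tags alone. Its direction before TMM turned with all transcripts counted.

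With TMM, 3 of the 9 genes were past 4-fold higher in the AVC and 1 lower, against 9.96% and 9.4% of all genes. The lower one was Smurf2, by RefSeq-linked tags. In the OFT 4 were higher and none lower, against 10.5% and 9.21%. Of all genes past 4-fold, 88.8% were higher in the AVC by listed tags, 51.5% with TMM and 35.4% after a GC correction. In the OFT the shares were 86.9%, 53.2% and 37.7%. Markers of several cell types differed along with the 9 genes. By listed tags, 23.8% of all genes were past 4-fold higher in the AVC and 22.2% in the OFT. Of 8 cardiomyocyte markers, 6 were past 4-fold higher in the AVC and 5 in the OFT. So were 4 and 3 of 7 cushion mesenchyme markers and 3 of 7 endothelial and endocardial markers in each. The median log2 ratio of the endothelial and endocardial list was 0.67 and 0.79, below the 0.96 and 0.85 of all genes. Of 5 epicardial markers, 1 was past 4-fold higher in each tissue, with none lower in the AVC and 2 in the OFT. Of the 7 erythroid markers, 7 were past 4-fold lower in the AVC and 6 in the OFT, against 3.01% and 3.34% of all genes. With TMM, 4 cardiomyocyte markers in the AVC and 2 in the OFT were past 4-fold higher. So were 3 cushion mesenchyme and 2 endothelial and endocardial markers in each. Past 4-fold lower with TMM were Myl2 in the AVC, Emcn in the OFT and all 7 erythroid markers in each. Of the epicardial markers, 1 was then higher in each, and 1 was lower in the AVC and 3 in the OFT. The part of these cell types in the ratios of the 9 genes was not tested.

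**Figure D3:**
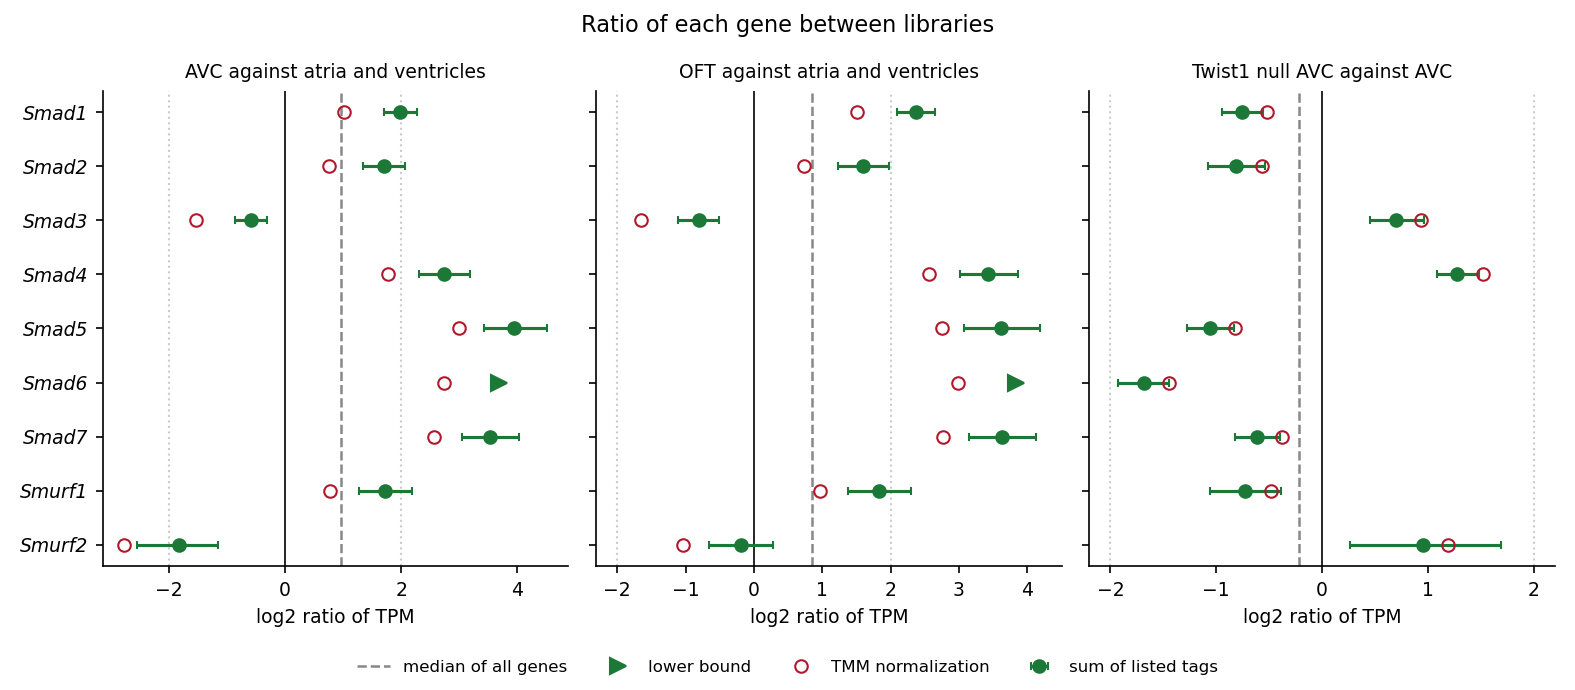
Log2 ratio of TPM of each gene in 3 comparisons. Filled points are ratios by listed tags with 95% counting intervals, triangles are lower bounds for Smad6, open circles are ratios with TMM normalization (bounds for Smad6 in the first 2 panels), the dashed line is the median of all genes and dotted lines mark 4-fold. Smad5, Smad6 and Smad7 lie past 4-fold higher in the AVC and OFT on both scales, and none of the 9 is past 4-fold in the null.

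For Smad2, Smad3, Smad6, Smad7 and Smurf1, the counting interval of the ratio between AVC and OFT included 1. The ratio of the AVC to the OFT was 1.08 for Smad2 (0.878 to 1.33), 1.17 for Smad3 (0.921 to 1.49), 0.898 for Smad6 (0.771 to 1.04), 0.931 for Smad7 (0.793 to 1.09) and 0.936 for Smurf1 (0.729 to 1.202). Smad4 was 1.62-fold lower in the AVC than in the OFT (1.37 to 1.91) and Smad1 1.31-fold lower (1.14 to 1.51), and Smad5 was 1.26-fold higher (1.06 to 1.49). Smurf2, by RefSeq-linked tags, was 3.09-fold lower in the AVC (1.87 to 5.30), but with all transcripts counted it was at 28.6 TPM in AVC and 29.8 in OFT. None of the 9 passed the adjusted exact test of edgeR in this comparison, where the lowest was adjusted exact p = 0.388 for Smurf2.

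Between the chambers, Smad2 was at a ratio of 1.02 in ventricles to atria (0.666 to 1.55). Smurf2 was 2.02-fold lower in the ventricles (1.34 to 3.10, adjusted exact p = 0.601). Smad5, with 32 tags in the atria and none listed in the ventricles, has no ratio because its level in the atria was no higher than the listing limit of its tag types allows in the ventricles.

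The Twist1 null AVC was compared with the wild type AVC to ask which genes differ when this EMT transcription factor is missing. None of the 9 genes was past 4-fold in either direction, where 3.76% of the 12966 genes tested were past 4-fold higher and 5.92% lower. By the unadjusted exact test of edgeR, Smad6 alone was under 0.05 (exact p = 0.0242), and no gene of the 9 passed after adjustment. With TMM, Smad4 alone was under 0.05 (exact p = 0.0406), and Smad6 was at exact p = 0.0515. With TMM none of the 9 was past 4-fold either, where 5.47% of all genes were past 4-fold higher and 4.01% lower. Of all genes past 4-fold, 38.8% were higher by listed tags and 57.7% with TMM, and the median log2 ratio of all genes was −0.22.

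Smad6 was 3.21-fold lower in the null (2.72 to 3.81, adjusted exact p = 0.132). Smad7 was 1.53-fold lower (adjusted exact p = 0.646). The BMP-responsive transducers Smad5 and Smad1 were 2.08-fold lower (adjusted exact p = 0.383) and 1.69-fold lower (adjusted exact p = 0.554). Smad2 was 1.75-fold lower (adjusted exact p = 0.523) and Smurf1 1.65-fold lower (adjusted exact p = 0.584). The other 3 genes lay the other way. Smad4 was 2.43-fold higher (2.12 to 2.79, adjusted exact p = 0.270), Smurf2 1.94-fold higher (1.21 to 3.24, adjusted exact p = 0.4996) and Smad3 1.63-fold higher (1.37 to 1.95, adjusted exact p = 0.590). The log2 ratio of Smurf2 went from 0.95 to 0.39 with all transcripts counted and −0.025 with the 3′-most site only. Along with these, 4 of 7 cushion mesenchyme markers and 1 of 8 cardiomyocyte markers, Myh6, were past 4-fold lower in the null. Past 4-fold higher were 4 of 7 erythroid markers. Of all genes, 5.92% were past 4-fold lower and 3.76% higher. With TMM, 3 cushion mesenchyme markers and Myh6 were lower, against 4.01% of all genes, and 4 erythroid markers higher, against 5.47%. The part of these differences in the levels of the 9 genes was not tested.

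The direction of a tag in the null also went with its first base after the NlaIII site. Over all tag types with a mean of at least 10 TPM, the median log2 ratio of the null to the AVC was 0.92 for 2158 tag types starting with thymine. It was −0.70 for 2041 starting with adenine, −0.50 for 1533 with cytosine and −0.75 for 2438 with guanine. The Smad3 tag shown above and the main Smad4 tag start with thymine. Smad4 site 1 and site 2, which start with thymine, had log2 ratios of 1.71 and 1.14, and site 3, which starts with cytosine, −0.75. Without tags starting with thymine the log2 ratio of Smad4 went from 1.28 to −1.18 and that of Smad3 from 0.70 to 1.32. This left Smad3 with 6 tags in the AVC, all of site 2 and the fewest that could be listed. In the null it left 8 tags of site 2 and 12 each of sites 7 and 18, which were not listed in the AVC. With each tag centred on the median of its first base, the log2 ratio of Smad4 was 0.48 and that of Smad3 −0.05. Medians by first base also differed against the chambers. They ran from 0.44 for thymine to 1.47 for cytosine in the AVC, and from 0.41 to 1.30 in the OFT.

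Smad6 site 1 also starts with thymine, yet had a log2 ratio of −2.03, below the 5th percentile of such tags at −1.03, as was Smad2 site 28 at −1.07. For Smad7 the 3′-most tag, which starts with cytosine, was at −1.81, while its site 4 tag was at least 4.50 higher on the log2 scale. The sum of the gene therefore joined tag types that differed in direction.

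**Figure D4:**
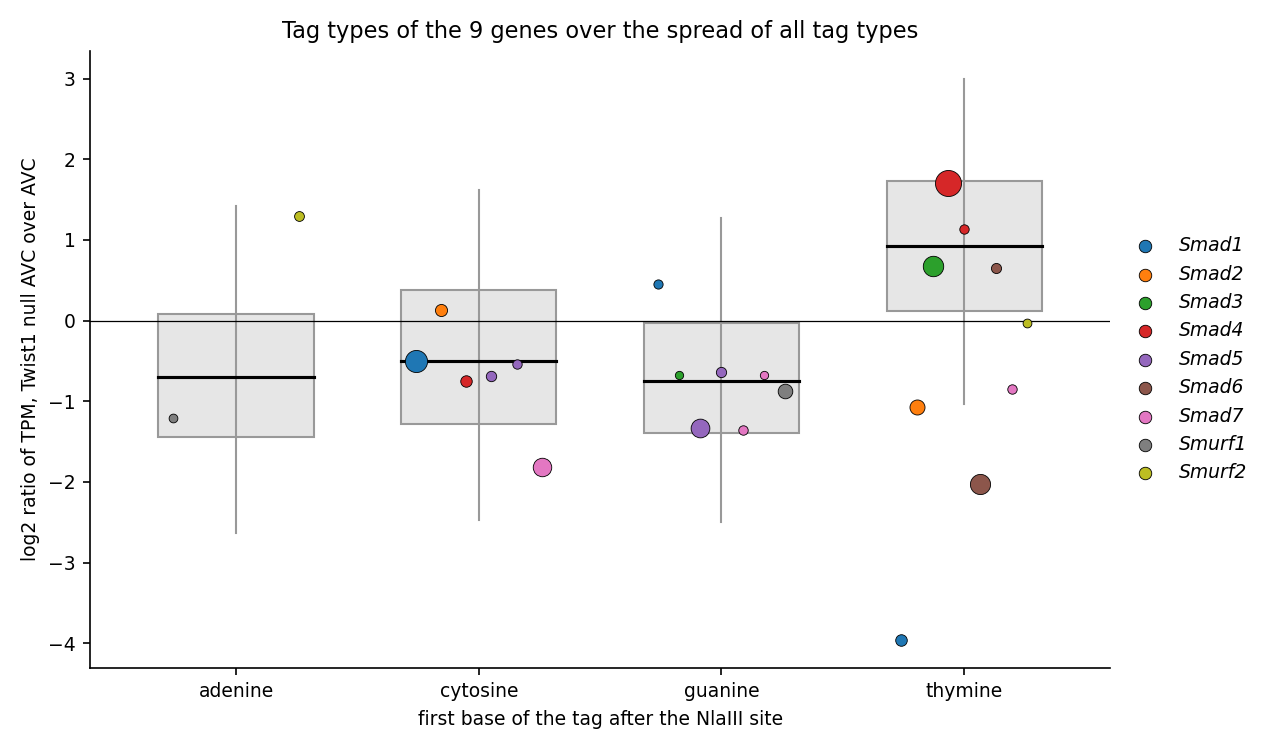
Log2 ratio of TPM of the null over the AVC for tag types of the 9 genes listed in both libraries, by the first base of the tag. Boxes are the 25th to 75th percentile of all tag types with a mean of at least 10 TPM, lines inside are medians, whiskers run from the 5th to the 95th percentile, and point area grows with the summed TPM of both libraries. The main tags of Smad3 and Smad4 lie within or near the raised thymine box (median 0.92), while that of Smad6 lies far below it.

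The rest of the pathway, from lists of its ligands, receptors, partners and targets, was set beside the 9 genes. In the AVC 6 of 10 ligands with tags were past 4-fold higher than in the chambers and none lower, with a median log2 ratio of 2.84 against 0.96 for all genes, of which 23.8% were past 4-fold higher and 3.01% lower. With TMM, 4 were higher and 1, Bmp10, lower, against 9.96% and 9.4% of all genes. Bmp2, the myocardial BMP of the AVC, was at 220 TPM in AVC, 27.1 in OFT, 4.50 in atria, 0 in ventricles and 51.2 in the null. Bmp4 had the reverse preference, with 9.05 TPM in AVC and 93.6 in OFT, 0 in atria, 2.37 in ventricles and 27.3 in the null. Tgfb2 was at 172 TPM in AVC, 132 in OFT, 23.8 in atria, 24.4 in ventricles and 266 in the null. Bmp5 and Bmp7 were 12.5-fold and 7.18-fold higher in the AVC (adjusted exact p = 2.76e-04 and 0.00168). In the OFT 6 of 10 ligands were higher, against 22.2% of all genes, and 1 lower, against 3.34%, the trabecular ligand Bmp10, which was 7.86-fold lower (named after its value was seen). With TMM 5 were higher there and 1, Bmp10, lower, against 10.5% and 9.21% of all genes. In the null 1 of 10 was past 4-fold lower, against 5.92% of all genes: Bmp2, 4.31-fold lower than in the AVC (adjusted exact p = 0.0537), which was not past 4-fold with TMM (log2 ratio −1.87).

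Among receptors, 4 of 10 were past 4-fold higher in AVC and 4 of 11 in OFT, against 23.8% and 22.2% of all genes. None was past 4-fold lower in these tissues, against 3.01% and 3.34%. None was past 4-fold in the null, where 3.76% of all genes were past 4-fold higher and 5.92% lower. The median log2 ratio of the receptors in AVC and OFT was 1.39 and 0.92, against 0.96 and 0.85 for all genes. With TMM, 3 were past 4-fold higher in each tissue, against 9.96% of all genes in the AVC and 10.5% in the OFT. Eng, an endothelial co-receptor, was 11.4-fold higher in the AVC (adjusted exact p = 2.38e-04) and 14.4-fold higher in the OFT (adjusted exact p = 6.25e-05). Acvr2b, an activin type II receptor, was 16.7-fold and 14.6-fold higher. Tgfbr1, the type I TGF-beta receptor, and Acvr1b, a type I activin receptor, were the other 2 in both tissues and were named after their values were seen. Bmpr2, the type II BMP receptor, was at 107 TPM in AVC, 85.6 in OFT, 39.9 in atria, 44.0 in ventricles and 52.6 in the null. Acvr2a, the other activin type II receptor, was 2.82-fold higher in the null than in the AVC (adjusted exact p = 0.202). Bmpr1a, the type I BMP receptor, was like Smad3 lower in the AVC and OFT than in the chambers and the null. It was at 56.0 TPM in AVC, 59.8 in OFT, 75.9 in atria, 96.6 in ventricles and 122 in the null.

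Of 16 SMAD partners and corepressors, 4 were past 4-fold higher and 1 lower in both the AVC and the OFT, and none was past 4-fold in the null. The share of them past 4-fold higher was near the 23.8% and 22.2% of all genes. Of all genes 3.01% and 3.34% were past 4-fold lower. In the null, 3.76% of all genes were past 4-fold higher and 5.92% lower. Ski, Skil and Tgif1 were higher in both tissues, Smad9 in AVC and Pmepa1 in OFT, and the deubiquitinase Usp15 was lower in both (Tgif1 and Usp15 were named after their values were seen). With TMM, Skil alone of the 16 stayed past 4-fold higher in either tissue, against 9.96% and 10.5% of all genes in the AVC and OFT. Usp15 stayed lower in both, joined in the OFT by Lemd3, an inner nuclear membrane protein that binds SMADs, also named after its value was seen. Of all genes 9.4% and 9.21% were past 4-fold lower with TMM. Skil, a SMAD corepressor, was at 141 TPM in AVC, 135 in OFT, 13.5 in atria, 4.02 in ventricles and 60.5 in the null. Ski, its relative, was 5.31-fold higher in the AVC (adjusted exact p = 0.00644) and 6.77-fold in the OFT (adjusted exact p = 0.00205). Pmepa1, which sequesters receptor-regulated SMADs, was at 15.3 TPM in AVC, 33.0 in OFT, 4.16 in the null and 0 in both chambers. Smad9, another BMP-responsive SMAD, was at 10.4 TPM in AVC, 5.89 in OFT, 0 in atria, 3.79 in ventricles and 9.40 in the null. Strap, which recruits Smad7 to receptors, was within 1.16-fold of the chambers in the AVC and OFT.

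Of 7 other ubiquitin ligases of the pathway, 1 was past 4-fold higher in the AVC and OFT, Nedd4l, at 7.02-fold (adjusted exact p = 0.00382) and 5.57-fold (adjusted exact p = 0.0128), against 23.8% and 22.2% of all genes. With TMM its log2 ratio was 1.86 and 1.62, under 4-fold. Nedd4 was at 795 TPM in AVC, 614 in OFT, 459 in atria, 661 in ventricles and 242 in the null, and was 3.28-fold lower in the null (adjusted exact p = 0.119). Stub1 was at 184 TPM in AVC and 119 in the null. Itch was 3.01-fold higher in the null (adjusted exact p = 0.222) and Wwp2 1.81-fold higher (adjusted exact p = 0.491).

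Of 11 SMAD target genes, 6 were past 4-fold higher in the AVC and 7 in OFT, against 23.8% and 22.2% of all genes. None was past 4-fold lower, against 3.01% and 3.34%. With TMM, 5 and 4 were past 4-fold higher, against 9.96% and 10.5% of all genes. Id2, a BMP-induced inhibitor of helix-loop-helix factors, was at 1086 TPM in AVC, 960 in OFT, 63.0 in atria, 102 in ventricles and 801 in the null. Msx1, a cushion homeobox factor, was at 92.3 TPM in AVC, 24.7 in OFT, 4.50 in atria, 1.42 in ventricles and 61.03 in the null. Tgfbi, a TGF-beta-induced matrix protein, was at 117 TPM in AVC, 223 in OFT, 1.29 in atria, 3.79 in ventricles and 14.1 in the null. It was 8.26-fold lower in the null than in the AVC (adjusted exact p = 0.00580), the only target past 4-fold there. The paper, with its own tag mapping, gives Tgfbi far lower levels in these libraries and a fall in the null that was not significant. Of all genes 5.92% were past 4-fold lower in the null, and 4.01% with TMM, where Tgfbi was again the only target. Id3 was at 241 TPM in AVC and 340 in the null.

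The genes most like 8 of the 9 were found by the distance between log2(TPM + 1) profiles over the 5 libraries, each centred on its mean, among 9090 genes with a mean of at least 5 TPM. The nearest were Grwd1 to Smad1 (distance 0.101), Noa1 to Smad2 (0.0744), Plekha8 to Smad3 (0.0806), Zhx2 to Smad4 (0.392) and Malat1 to Smad5 (0.566). They were Fastk to Smad6 (0.129), Fam117b to Smad7 (0.182) and Nhp2 to Smurf2 (0.581). Eng was the second nearest to Smad7 (0.260), followed by Srf (0.305). The next 2 were Prrc1 and Fignl2 for Smad1, Mlf2 and Cask for Smad2, Rab8a and Bcat2 for Smad3, BC005537 and Tjap1 for Smad4, and Fam214a and Eif2ak1 for Smad5. They were Alpk3 and Tbl1x for Smad6, and Alad and Elp4 for Smurf2, at distances of up to 0.712. Among the 9 genes themselves, Smad2 and Smurf1 were 0.335 apart and Smad6 and Smurf2, by RefSeq-linked tags, 6.96. These profiles share 5 libraries and their first-base differences, and describe likeness only.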

How the data were processed

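Tag-seq counts were deposited per tag type, as the authors kept those with more than 5 tags in a library; the submitters' notes name mm9, and mismatch removal and gene mapping are not in these files. Virtual tags (17 bases after each NlaIII site) were taken from 33363 GENCODE M21 transcripts linked to RefSeq (GRCm38), with 20 adenines added. Of 315529 virtual tags 308986 belong to 1 gene, and sense tags of 1 gene were summed. No listed tag was shared by one of the 9 genes and another gene, and uniqueness in the genome was not checked. In the 5 libraries 70.7% to 74.6% of tags matched 1 gene.

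Ratios used library totals. Exact tests were run in edgeR 4.0.16 (R 4.3.3) with dispersion 0.12 as the methods state. TMM, DESeq2 1.42.0 size factors and other alternatives, 18 planned and 2 added, were run in Python 3.11.15 and R. Ratio intervals are exact conditional binomial, and p-values measure no biological spread.

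Named genes are the 9 genes, Smad9, in each pathway list the 2 of highest mean TPM and the 2 of largest change per comparison, and the 3 nearest genes by profile. Some of these are not reported here. Tag sequences shown are the most abundant tag of each of 6 genes, those that differ in direction from their gene in a comparison, and 2 chosen after their values were seen. The genes and lists were chosen with earlier results of these data known.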

Additional observations from a re-analysis of the deposited data

Results flagged for a closer look

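Signal was seen in tags that the sums above do not use. Antisense tags of Smad6 were at 10.3 TPM in the Twist1 null AVC (134 tags, 36.4% of its sense and antisense tags) against 2.80 TPM in AVC, and none was listed in the other 3 libraries. The tag of the Smurf2 transcript without a RefSeq link was at 25.02 TPM in AVC against 0 in atria and 4.02 in ventricles. Neither was tested, with 1 library per group.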

How the results depend on the processing

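No paired analysis was possible because each group has 1 library, though the atria or the ventricles could be left out of the chambers. The counts past 4-fold moved with the threshold, and by direction with the scaling. All genes past 4-fold higher went from 2980 to 1246 with TMM and 844 with the GC correction in AVC, and from 2767 to 1302 and 930 in OFT, while those lower went from 377 to 1175 and 1539, and from 416 to 1147 and 1537. At 2-fold, 8 of the 9 genes were past it in the AVC, 7 higher and 1 lower. In the OFT 7 were, all higher, and in the null 3. All genes past 2-fold numbered 7072 of 12506 in AVC, 6805 of 12453 in OFT and 5078 of 12966 in the null. They numbered 3357, 3183 and 1254 at 4-fold and 1284, 1251 and 225 at 8-fold. In the null, 1 of the 9 genes was past 4-fold with the 3′-most site only and 1 with first-base centring, an alternative added after seeing the data, in both cases Smad6. Of all genes, 1593 of 11562 (1084 of them lower) were past 4-fold with the 3′-most site only. With first-base centring 873 of 12966 were (445 of them lower). Smurf2 turned most often: its log2 ratio was 0.55 (3′-most site) and 0.97 (all transcripts) in the AVC, 0.29 (all-tag totals), 1.02 (3′-most site), 1.03 (all transcripts) and 0.43 (ventricles alone) in the OFT, and −0.025 (3′-most site) in the null. In AVC it was past 4-fold lower with TMM (−2.76), DESeq2 size factors (−2.80), totals without haemoglobin (−2.02), tag types with more than 10 tags (−2.61), no tags starting with thymine (−2.69), the GC correction (−2.71), first-base centring (−2.53) and the atria alone (−2.21). Smurf1 in AVC was at −0.31 with the GC correction. In the null, Smad4 was at −1.18 without tags starting with thymine and Smad3 at −0.055 with first-base centring. Smad1, Smad2, Smad5, Smad6 and Smad7 kept their direction in all alternatives run that gave a ratio, though Smad6 in AVC, without tags starting with thymine, was a bound of 0.23. Some ratios under 4-fold passed it in an alternative. In AVC, Smad1 did with all-tag totals (2.10) and the ventricles alone (2.28). Smad2 did in AVC with tag types with more than 10 tags (2.08) and the 3′-most site only (2.24). In OFT, Smad2 did with all-tag totals (2.07) and the 3′-most site only (2.22). Smurf1 did in OFT with all-tag totals (2.30) and the ventricles alone (2.07). With the GC correction, Smad6 (a bound of 1.84 on the log2 scale) and Smad4 (1.46) in AVC and Smad1 (1.48) in OFT were no longer past 4-fold, nor were Smad4 in AVC (1.74) and Smad1 in OFT (1.49) with DESeq2 size factors, or Smad1 in OFT (1.27) with first-base centring. At dispersion 0.4 the unadjusted exact p came to over 0.05 for Smad1 (0.162), Smad2 (0.226), Smad4 (0.0616), Smurf1 (0.222) and Smurf2 (0.216) in AVC, for Smad1 (0.0989), Smad2 (0.260) and Smurf1 (0.200) in OFT and for Smad6 (0.230) in the null. The exact p of Smad6 against the chambers, with 5 tags for each unlisted tag type (an alternative also added after seeing the data), was 8.93e-06 in AVC and 3.76e-06 in OFT. At dispersion 0.05 the unadjusted exact p of Smad4 and Smad5 in the null also came under 0.05. The causes of these changes, beyond the tags each alternative leaves out, were not tested. Depth limits Smurf2 in AVC (22 tags), Smad7 in ventricles (13 tags), and Smad5 and Smad6 in the chambers.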

Other observations

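Antisense tags were also listed for other genes of the 9. Smad7 had 19.6 TPM of them in the null, 10.04 in AVC, 12.1 in OFT and none in the chambers. Smad4 had 15.4 TPM in the null, 12.0 in AVC, 9.30 in OFT, 5.14 in atria and 5.21 in ventricles, where antisense tags were 51.1% and 40.7% of its tags in the atria and ventricles. Smad5 had 1.89 TPM of antisense tags in the ventricles, where no sense tag of its RefSeq-linked transcripts was listed.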
